A study of Homo sapiens with 12 samples.

Results

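SR proteins are splicing factors with an RNA-binding domain and a tail rich in arginine and serine. They sit on exons and recruit the splicing machinery, and the tail is phosphorylated in the nucleus by the CLK kinases. Phosphorylation by CLK1 releases SR proteins from nuclear speckles, where they are stored. Several genes of the family are known to limit their own output by splicing a so-called poison exon into the transcript, and CLK1 and CLK4 are known for transcripts that stay in the nucleus with introns still in place. The family examined here has 10 genes: the SR proteins SRSF1, SRSF2, SRSF3, SRSF6, SRSF7 and SRSF11, the related TRA2A and TRA2B, and the kinases CLK1 and CLK4. A probe set, the array's unit of measurement for a transcript, was assigned to a member when that member was its only annotated gene symbol. This gave 38 of the array's 54675 probe sets for 9 of the 10 genes, out of 19775 genes measured in all. All 3 probe sets of SRSF2 also carry the symbol MIR636, so no value is given for SRSF2. Each gene has a main probe set, the one with the highest mean log2 intensity over the 12 arrays. Of the 38 probe sets, 23 reached a log2 intensity of at least 6 in at least 4 arrays and were kept for testing, among them the main probe sets of all 9 genes.

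The arrays hold RNA of MCF10A, a mammary epithelial cell line that is usually called non-tumorigenic, although the sample labels record breast cancer as its origin. Cells in which the translation initiation factor eIF4G1 was silenced through an shRNA under doxycycline control (4GKD) were set against wild-type cells (WT). Cells of both genotypes were irradiated with 10 Gy or mock-treated, and each of these 4 conditions gave heavy polysomes (HMW), light polysomes (LMW) and unfractionated RNA (Total), with 1 array each. The labels define the pools only for WT mock cells, as 4 or more ribosomes in HMW and 1 to 3 in LMW. Whether WT cells received doxycycline or a control hairpin, and how long after irradiation the cells were harvested, is stated in none of the sources. No group has a replicate and nothing says that the arrays come from separate cultures, so the p-values reflect nothing beyond the spread among the 12 arrays, which may be technical. In bulk RNA a change in the share of cells that express a gene and a change in RNA per cell cannot be told apart.

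The main probe set of the silenced gene, EIF4G1, was left in Total at 20.4% of the WT intensity after 10 Gy and at 15.9% in mock cells. In the Total arrays 5 of 5 basal mammary markers with a usable probe set, 3 of 6 luminal, 1 of 5 fibroblast, 0 of 3 blood and 0 of 3 endothelial markers reached a log2 intensity of 6 on all 4 arrays. The polysome arrays of WT cells stood apart in the response to irradiation. In HMW, 34 genes were at least 2-fold higher and 52 at least 2-fold lower after 10 Gy in 4GKD cells, against 1607 and 223 in WT cells. In LMW these counts were 23 and 112 in 4GKD cells, against 1620 and 421 in WT cells. In Total they were 2 and 96 in 4GKD cells, against 8 and 1 in WT cells. The WT 10 Gy and the WT mock polysome arrays therefore differ from each other in much more than this family. Which of them is unusual was not tested. The values of each pair, or without a pair, are given where a call rests on these arrays.

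**Figure D1:**
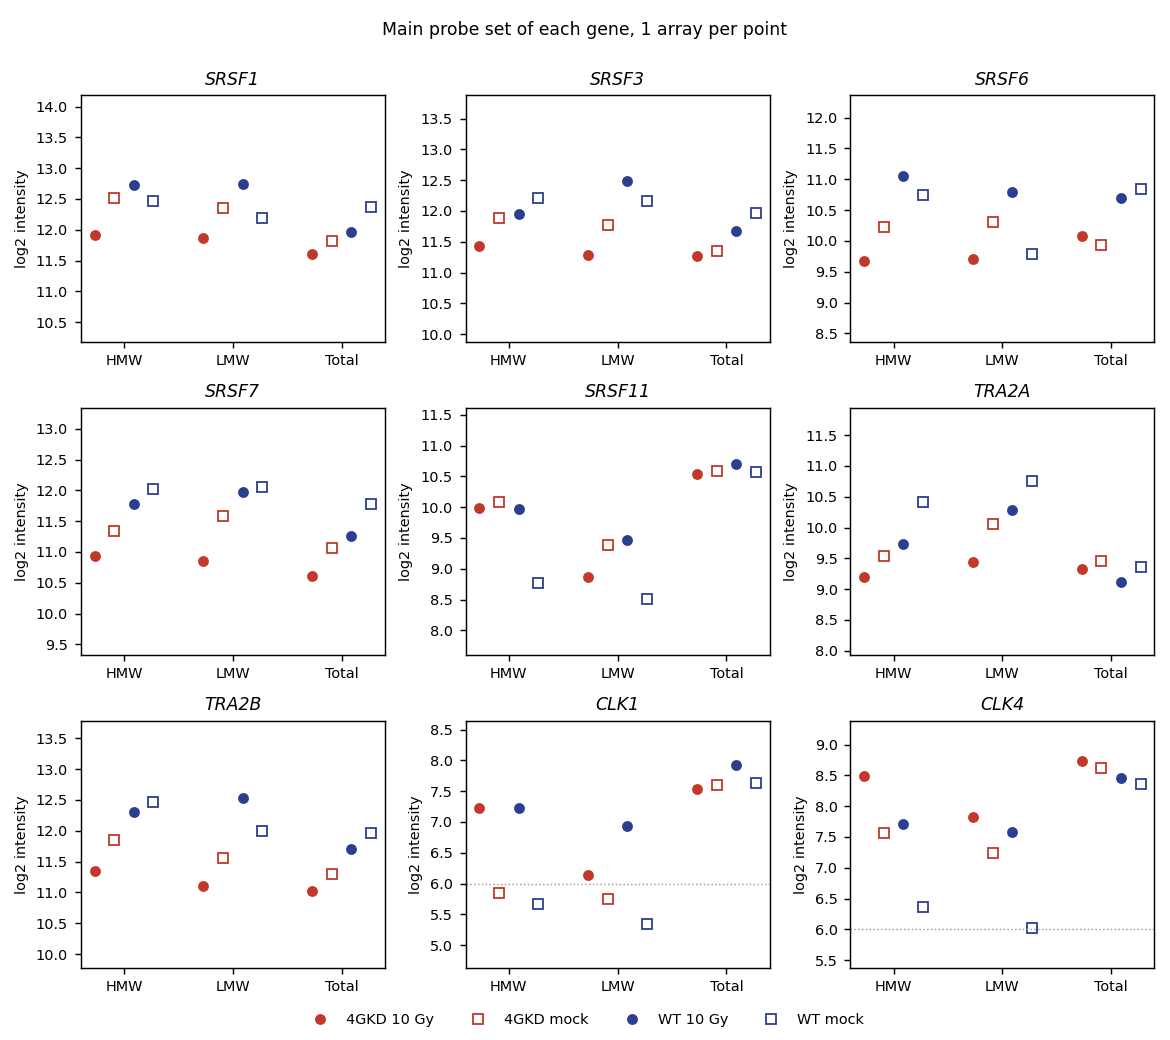
Log2 intensity (vertical axes, each spanning the same range of log2 units) of the main probe set of 9 genes in HMW, LMW and Total; each point is 1 array, red for 4GKD and blue for WT, filled for 10 Gy and open for mock, and the dotted line marks the filter level of 6. SRSF11, CLK1 and CLK4 sit higher in Total than in LMW and mostly higher than in HMW, where the irradiated 4GKD point of CLK4 reaches the Total points, and in Total the 4GKD points of SRSF1, SRSF3, SRSF6, SRSF7 and TRA2B lie below the WT points.

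Heavy polysomes were first compared with Total, which sets the place of an mRNA on many ribosomes against its abundance in the cell. The 3 members with the clearest deficit were SRSF11 and both kinases, while SRSF1, SRSF7 and TRA2B were slightly enriched. In limma with the condition as a block, 6 of the 9 members passed (3 higher, 3 lower), against 35.9% of all 10157 genes tested, 17.1% higher and 18.8% lower. The members' median difference was 0.30 on the log2 scale, and that of all genes was 0.03.

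CLK1, a kinase that phosphorylates SR proteins, read 7.22 (10 Gy) and 5.85 (mock) in HMW of 4GKD cells and 7.23 (10 Gy) and 5.67 (mock) in HMW of WT cells. In Total it read 7.54 (10 Gy) and 7.61 (mock) in 4GKD cells and 7.93 (10 Gy) and 7.63 (mock) in WT cells. All 4 HMW values lay below all 4 Total values, and both mock HMW arrays were below the filter level of 6, where differences are compressed. The log2 difference was -1.18 (SE 0.29, adjusted p = 0.017, lower in 4 of 4 pairs), with pairs from -1.95 in WT mock to -0.32 in irradiated 4GKD cells.

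CLK4, a close relative of CLK1 with the same kind of substrate, read 8.50 (10 Gy) and 7.57 (mock) in HMW of 4GKD cells and 7.70 (10 Gy) and 6.36 (mock) in HMW of WT cells. In Total it read 8.74 (10 Gy) and 8.62 (mock) in 4GKD cells and 8.45 (10 Gy) and 8.35 (mock) in WT cells. The HMW array of irradiated 4GKD cells overlapped the Total arrays, and the other 3 HMW arrays lay below them. The log2 difference was -1.01 (SE 0.28, adjusted p = 0.025, lower in 4 of 4 pairs). Its second kept probe set, 228751_at, gave -0.95 (adjusted p = 0.046 in the fit over all 16824 kept probe sets).

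SRSF11, an SR-related protein of the spliceosome, read 9.99 (10 Gy) and 10.08 (mock) in HMW of 4GKD cells and 9.98 (10 Gy) and 8.78 (mock) in HMW of WT cells. In Total it lay between 10.54 and 10.70 on all 4 arrays, above every HMW value. The log2 difference was -0.90 (SE 0.24, adjusted p = 0.021, lower in 4 of 4 pairs). The WT mock pair stood at -1.80 and the other 3 pairs between -0.72 and -0.52, and without the WT mock pair the difference was -0.59 (adjusted p = 0.0046).

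TRA2B, which acts as an activator of exons through purine-rich enhancers, read 11.34 (10 Gy) and 11.84 (mock) in HMW of 4GKD cells and 12.30 (10 Gy) and 12.47 (mock) in HMW of WT cells. In Total it read 11.02 (10 Gy) and 11.30 (mock) in 4GKD cells and 11.70 (10 Gy) and 11.97 (mock) in WT cells. Within each condition HMW was above Total, by 0.32 to 0.61, although the groups overlap across conditions. The log2 difference was 0.49 (SE 0.11, adjusted p = 0.010, higher in 4 of 4 pairs).

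SRSF1, the founding member of the SR family, differed by 0.46 (SE 0.13, adjusted p = 0.028), with pairs from 0.09 in WT mock to 0.75 in WT 10 Gy cells. SRSF7, which also serves as an adaptor for mRNA export, differed by 0.35 (SE 0.11, adjusted p = 0.045), with pairs from 0.26 to 0.52. Both were higher in 4 of 4 pairs. Without a trend in the variance model neither SRSF1 (adjusted p = 0.079) nor SRSF7 (adjusted p = 0.11) passed, and SRSF7 did not pass without a filter either (adjusted p = 0.056). SRSF3, the shortest SR protein and an export adaptor as well, was at 0.30 in 4 of 4 pairs without passing (adjusted p = 0.061). SRSF6 was at 0.03 and TRA2A, the relative of TRA2B, at 0.41 (adjusted p = 0.90 and 0.17).

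These calls rest on few arrays. Without the WT 10 Gy pair none of the 6 members passed, with adjusted p between 0.055 and 0.17 and every direction unchanged. Without the 4GKD mock pair only SRSF11 and TRA2B passed, and without the 4GKD 10 Gy pair SRSF7 did not. Without the WT mock pair SRSF3 passed as well (0.33, adjusted p = 0.032).

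Light polysomes held less SRSF11, CLK1 and CLK4 than Total as well. SRSF11 differed by -1.54 (adjusted p = 0.0021), CLK1 by -1.63 (adjusted p = 0.0018) and CLK4 by -1.37 (adjusted p = 0.0052), each lower in 4 of 4 pairs. CLK1 read 6.14 (10 Gy) and 5.75 (mock) in LMW of 4GKD cells and 6.94 (10 Gy) and 5.35 (mock) in LMW of WT cells, all below its Total values. All LMW values of SRSF11, from 8.52 to 9.48, and of CLK4, from 6.02 to 7.83, likewise lay below their Total values.

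TRA2A alone passed upwards in LMW. It read 9.44 (10 Gy) and 10.05 (mock) in LMW of 4GKD cells and 10.28 (10 Gy) and 10.76 (mock) in LMW of WT cells. In Total it read 9.32 (10 Gy) and 9.45 (mock) in 4GKD cells and 9.12 (10 Gy) and 9.37 (mock) in WT cells. The log2 difference was 0.82 (SE 0.27, adjusted p = 0.030), with pairs from 0.11 in irradiated 4GKD to 1.39 in WT mock cells. In all 1 member was higher and 3 were lower, against 56.7% of all genes called, 28.6% higher and 28.1% lower. TRA2A did not pass without the WT mock pair (0.63, adjusted p = 0.10), without the WT 10 Gy pair (0.70, adjusted p = 0.094) or without the 4GKD mock pair (0.89, adjusted p = 0.059).

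Heavy against light polysomes separated few members. SRSF11 was higher in HMW (0.64, SE 0.17, adjusted p = 0.023) and TRA2A lower (-0.41, SE 0.13, adjusted p = 0.040), each in 4 of 4 pairs. CLK1 (0.45, adjusted p = 0.094) and CLK4 (0.36, adjusted p = 0.080) leaned the same way as SRSF11 in 4 of 4 pairs without passing. The other 5 members differed by -0.09 to 0.27 and did not pass. Thus 1 member was higher and 1 lower, against 40.8% of all genes called, 19.7% higher and 21% lower. SRSF11 did not pass without the 4GKD mock pair (0.63, adjusted p = 0.084) or the 4GKD 10 Gy pair (0.48, adjusted p = 0.091). TRA2A did not pass when any 1 of the 4 pairs was left out (adjusted p from 0.057 to 0.16).

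**Figure D2:**
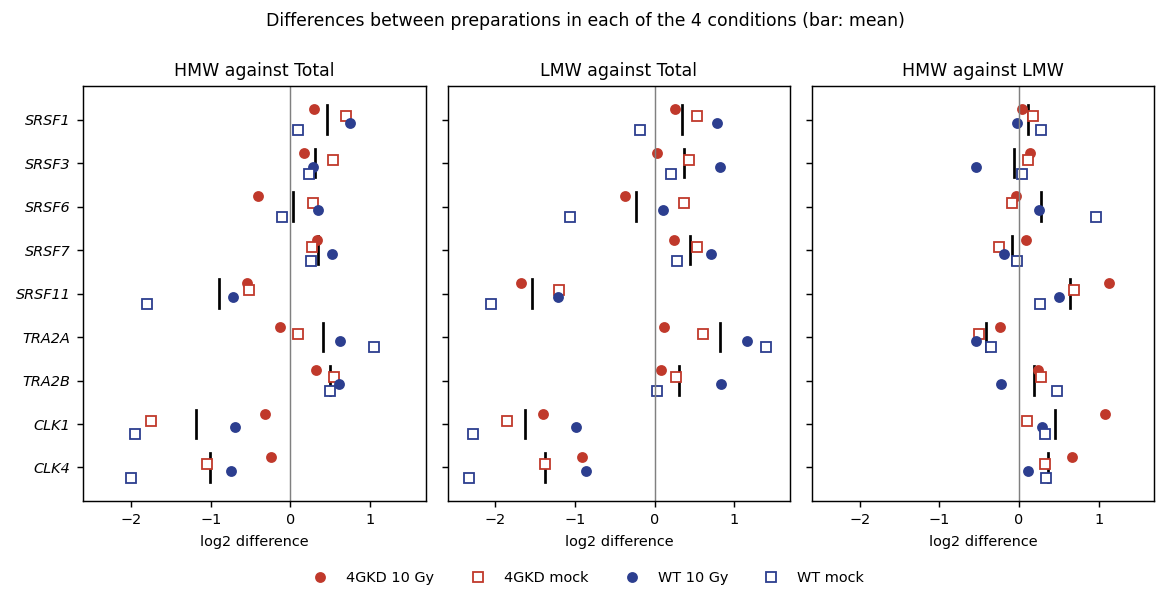
Log2 differences (horizontal axes) between preparations within each condition for the main probe set of 9 genes: HMW against Total (left), LMW against Total (middle) and HMW against LMW (right). Points are the 4 conditions, coloured as 4GKD (red) and WT (blue), filled for 10 Gy and open for mock, and bars are means. SRSF11, CLK1 and CLK4 are below 0 in every pair against Total, with WT mock the lowest, while TRA2B is above 0 in every pair.

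The probe sets of a gene did not all follow its main one, and for 3 genes they went opposite ways. In HMW against Total, 3 of the 23 kept probe sets passed as higher and 8 as lower, against 14.5% of all probe sets called higher and 17.8% called lower. The 8 include SRSF1 226419_s_at and TRA2A 213593_s_at, which passed the filter through their 4 Total arrays alone and so had to be lower on polysomes. SRSF1 had 3 probe sets at 0.46 to 0.98 (main 211784_s_at, with 208863_s_at and 201742_x_at), 227164_at at -0.06, and 226419_s_at at -2.68. SRSF7 had its main 214141_x_at at 0.35 and 201129_at at 0.42, but 213649_at at -2.53. TRA2A had its main 204658_at at 0.41 and 213593_s_at at -3.25. In each of these 3 genes the main probe set was thus at or above Total in heavy polysomes on average, while another probe set was far below it.

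The values behind these probe sets show where the signal lies. SRSF1 226419_s_at read between 4.52 and 4.99 in the 4 HMW arrays and between 4.61 and 5.06 in the 4 LMW arrays, against 7.10 to 7.62 in Total. TRA2A 213593_s_at read between 3.43 and 3.73 in HMW and between 3.53 and 3.70 in LMW, against 6.44 to 7.17 in Total. SRSF7 213649_at read between 5.09 and 6.64 in HMW and between 6.03 and 7.32 in LMW, against 8.40 to 8.81 in Total. For SRSF7 213649_at no polysome array reached the lowest Total array, in either genotype or treatment. For SRSF1 226419_s_at and TRA2A 213593_s_at the filter fixed that outcome, since only their 4 Total arrays reached 6. All polysome values of SRSF1 226419_s_at and TRA2A 213593_s_at lay below the filter level of 6, so the deficits of both have no exact size.

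For SRSF7 the difference of 213649_at, in HMW against Total, lay below that of the main probe set by a mean gap of -2.87 (4 pairs from -3.93 to -2.29); this probe set was picked for being the lowest, so the gap is a description. By the same measure the probe sets of SRSF3, TRA2B and CLK4 were closer together, with mean gaps of -0.16, -0.22 and 0.06, although the pairs of TRA2B reached -0.70. For SRSF6 the mean gap was 0.32 (4 pairs from -0.0027 to 0.94) and for SRSF11 it was -0.31 (4 pairs from -0.94 to 0.11). The part of the transcript each probe set reads is not known from the sources used here, so these gaps are not assigned to an exon, an intron or a transcript end. With the median of all probe sets in place of the main one, SRSF1 (-1.37) and SRSF7 (-0.96) were below Total in heavy polysomes. Both medians draw on the low probe sets, 226419_s_at of SRSF1 and 213649_at of SRSF7, so they are no separate result.

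In light polysomes 8 of the 23 probe sets passed as lower against Total, where 30.3% of all probe sets did. They were both probe sets of SRSF11 and of CLK4, that of CLK1, and SRSF1 226419_s_at at -2.58, SRSF7 213649_at at -2.14 and TRA2A 213593_s_at at -3.18. As in heavy polysomes, SRSF1 226419_s_at and TRA2A 213593_s_at passed the filter through their Total arrays alone and so had to be lower. Whether nuclei were removed before polysomes were prepared is not stated in the sources. Beside these values stand those of the nuclear RNAs MALAT1, at -6.47 in HMW against Total, and TUG1, at -1.94 (both lower in 4 of 4 pairs). MEG3, the third measured RNA of that list, was higher in HMW (0.62) and in LMW (0.98) than in Total. The part of nuclear RNA in the deficits of the family was not tested.

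**Figure D3:**
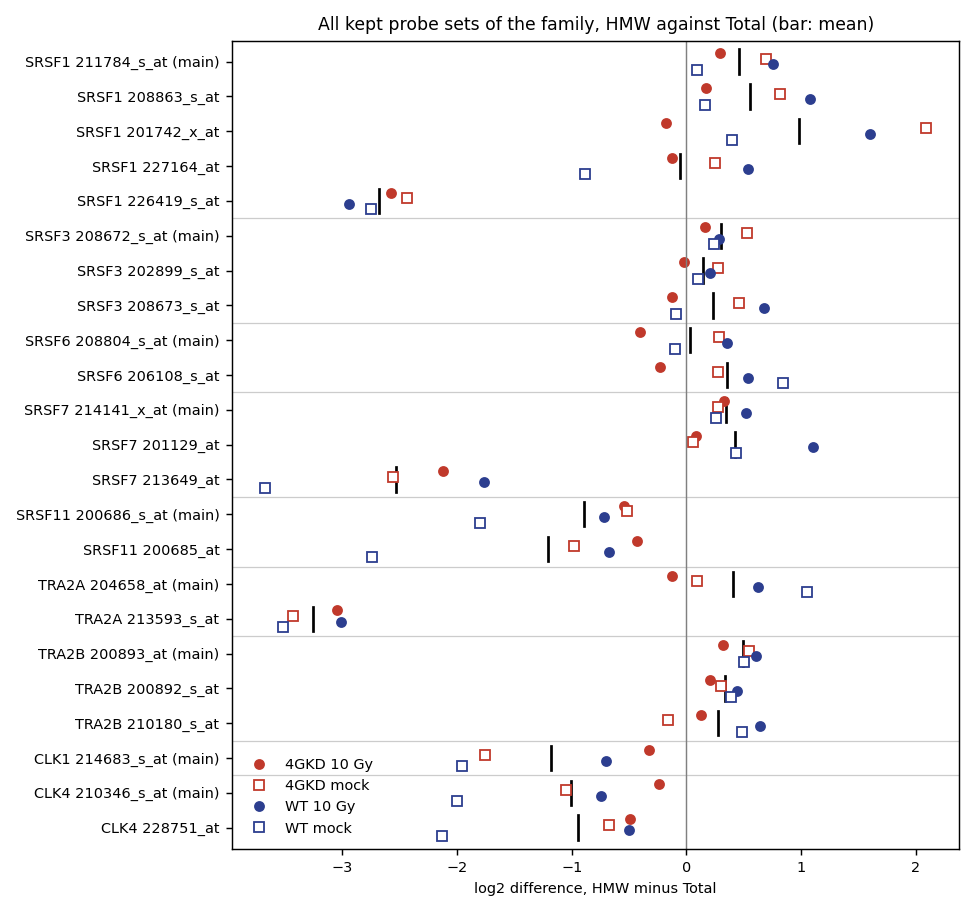
Log2 difference HMW minus Total (horizontal axis) for the 23 kept probe sets of 9 genes, 1 row each and grouped by gene, with the 4 conditions as points (red 4GKD, blue WT, filled 10 Gy, open mock) and the mean as a bar. SRSF1 226419_s_at, SRSF7 213649_at and TRA2A 213593_s_at lie between -3.67 and -1.76, apart from the main probe sets of the same genes.

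Silencing of eIF4G1 was next examined in Total, which asks how the abundance of these mRNAs differs in cells with little eIF4G1. The fit used the 4 Total arrays with genotype and treatment and leaves 1 residual degree of freedom, so p-values borrow nearly all of their spread from other genes. SRSF1, SRSF3, SRSF6, SRSF7 and TRA2B fell and no member was called higher. Thus 5 of 9 were called, all lower, against 40.3% of all genes called and 19.7% called lower. The median of the members was -0.45, and that of all genes was 0.03.

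TRA2B fell by 0.67 on the log2 scale (SE 0.07, adjusted p = 7.6e-05), with 11.02 (10 Gy) and 11.30 (mock) in 4GKD cells against 11.70 (10 Gy) and 11.97 (mock) in WT cells. SRSF7 fell by 0.68 (SE 0.07, adjusted p = 0.00010), with 10.61 (10 Gy) and 11.06 (mock) in 4GKD cells against 11.26 (10 Gy) and 11.77 (mock) in WT cells. SRSF6, an SR protein of the same domain plan as SRSF1, fell by 0.76 (SE 0.10, adjusted p = 0.00027), with 10.08 (10 Gy) and 9.94 (mock) in 4GKD cells against 10.70 (10 Gy) and 10.85 (mock) in WT cells. In all 3 genes both 4GKD arrays lay below both WT arrays.

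SRSF3 fell by 0.51 (SE 0.08, adjusted p = 0.00063), with 11.26 (10 Gy) and 11.35 (mock) in 4GKD cells against 11.67 (10 Gy) and 11.97 (mock) in WT cells. SRSF1 fell by 0.45 (SE 0.07, adjusted p = 0.00081), with 11.61 (10 Gy) and 11.83 (mock) in 4GKD cells against 11.97 (10 Gy) and 12.38 (mock) in WT cells. Here too the genotypes did not overlap. In the fit over all 12 arrays SRSF1 did not pass (-0.40, adjusted p = 0.075).

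The remaining members did not pass in Total. SRSF11 differed by -0.07, TRA2A by 0.15, CLK1 by -0.20 and CLK4 by 0.28 (adjusted p = 0.61, 0.26, 0.29 and 0.063). CLK4 was higher in 2 of 2 pairs and passed with the filter at log2 7 (adjusted p = 0.049 in limma). Probe sets divided the genes once more: 13 of the 23 kept probe sets were lower and 0 higher, against 17.9% of all probe sets called lower. All 3 probe sets of SRSF3 (-0.64 to -0.51) and of TRA2B (-0.67 to -0.46) passed. The probe sets of SRSF1 were spread more widely, with 227164_at at -1.70 in the mock and -1.56 in the irradiated pair. In the same order 208863_s_at was at -0.75 and -0.30, 201742_x_at at -1.36 and 0.09, and 226419_s_at at 0.05 and -0.53. SRSF11 200685_at read 7.33 (10 Gy) and 7.69 (mock) in 4GKD cells against 8.65 (10 Gy) and 8.60 (mock) in WT cells, a difference of -1.11 (adjusted p = 0.0020), although the main SRSF11 probe set was at -0.07. SRSF6 206108_s_at differed by 0.33 (adjusted p = 0.078), opposite to the main SRSF6 probe set, and SRSF7 213649_at by 0.14 (adjusted p = 0.43). With the median of all probe sets in place of the main one SRSF6 did not pass (-0.21, adjusted p = 0.17) and SRSF11 did (-0.76, adjusted p = 0.0034).

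**Figure D4:**
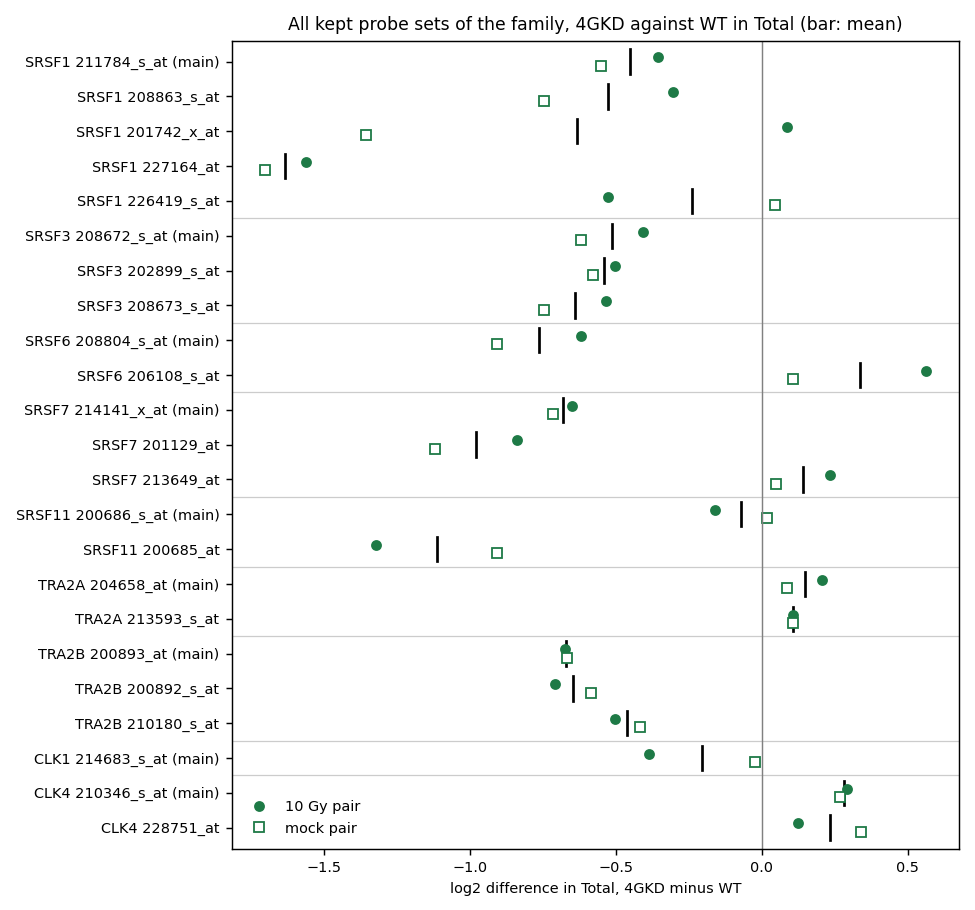
Log2 difference 4GKD minus WT in Total (horizontal axis) for the 23 kept probe sets, with the irradiated pair as filled circles, the mock pair as open squares and the mean as a bar. The probe sets of SRSF3 and TRA2B lie together below 0, while those of SRSF1, SRSF6, SRSF7 and SRSF11 spread to both sides or apart from each other.

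TRA2B was lower in 4GKD cells in both polysome pools, and SRSF7 in HMW. These fits, on the 4 HMW or the 4 LMW arrays, were added after the values had been seen. In HMW TRA2B differed by -0.80 (adjusted p = 0.021) and SRSF7 by -0.77 (adjusted p = 0.046), both in 2 of 2 pairs, against 4.14% of all genes called lower. SRSF6 differed by -0.95 (adjusted p = 0.052). In LMW TRA2B alone passed (-0.93, adjusted p = 0.020), against 5.2% of all genes called lower, while SRSF3 differed by -0.80 (adjusted p = 0.052). The pairs of TRA2B in HMW were -0.96 after 10 Gy and -0.63 in mock cells, and in LMW -1.43 after 10 Gy and -0.43 in mock cells, so the LMW mean rests largely on the irradiated pair. The pairs of SRSF7 in HMW were -0.84 after 10 Gy and -0.69 in mock cells. Without a trend in the variance model none of these calls was kept (adjusted p from 0.11 to 0.25).

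When HMW was taken relative to Total within each condition, the knockdown changed no member past the threshold (0 of 9, against 4.58% of all genes in limma). At an unadjusted p below 0.05 TRA2A alone was left, at -0.85 in 2 of 2 pairs (adjusted p = 0.30). How many of all genes reach that unadjusted level was not counted for any comparison. SRSF1, SRSF3, SRSF6, SRSF7 and TRA2B lay between -0.19 and 0.09 with SE of 0.24 to 0.38. In each of these genes the mock pair lay above 0 and the irradiated pair below 0, so the means average opposite values. SRSF1 was at 0.60 in the mock and -0.46 in the irradiated pair, and SRSF6 at 0.38 and -0.76. CLK4 was at 0.72 and SRSF11 at 0.73 (SE 0.44 and 0.41), SRSF11 with 1.28 in the mock and 0.17 in the irradiated pair. With 1 residual degree of freedom, these SE borrow nearly all of their spread from other genes. For HMW relative to LMW 0 of 9 members passed as well, against 14.6% of all genes. Here SRSF6 alone was left at an unadjusted p below 0.05 (-0.67, adjusted p = 0.091). Its pairs were -1.05 in mock cells and -0.29 after 10 Gy, so the mean rests largely on the mock pair.

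The members that moved together across the arrays can be described by their correlation over the 12 arrays, which share 4 conditions and 3 preparations and are not independent. SRSF3 ran closest to TRA2B (Pearson r = 0.95) and SRSF7 (0.94), and CLK1 to CLK4 (0.87). SRSF11 followed CLK4 (0.87) and CLK1 (0.86), and TRA2A ran opposite to CLK4 (-0.92). Among all other kept genes, the pattern of SRSF7 was nearest to GINS2 and DNAJC9 (0.98 each) and that of TRA2B to PRPS2 (0.98), DSCC1 and RFC5 (0.97 each). SRSF3 was nearest to GINS3 (0.96), SRSF1 to PHF10 (0.95) and SRSF6 to CDR2 (0.93). CLK1 was nearest to DNAJB4 (0.97), CLK4 to MXI1 (0.98), SRSF11 to MAN1A2 (0.98) and TRA2A to TCF3 (0.98).

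The sequence before the transcription start is shown for 4 genes: SRSF3 and TRA2B, the members with the highest correlation, and the kinases CLK1 and CLK4. RefSeq (GRCh38.p14) gave a window for 8 of the 10 genes, all but SRSF2 and TRA2A. Each window held 300 bases, 250 before the start and 50 after it, and the motifs were searched in all of it. Of 11 short motifs searched on both strands, TGACG, the core of sites known for the CREB and ATF factors, was singled out after the matches were seen. TGACG or its reverse complement CGTCA was found in windows of 7 of the 8 genes, all but SRSF6, against 28.4% of all genes with a window and 24.6% of all 35116 windows. GGGCGG or its reverse complement was found in 6 of the 8 genes, against 48.3% of all genes and 45% of all windows, and the full palindrome TGACGTCA in 0 of the 8. A match describes these letters only. The sequences below hold only the part from 250 bases before the start up to the start, 5′ to 3′ on the gene's strand, with the matches in capitals. SRSF3 and TRA2B stand for the members lower in Total of 4GKD cells, and CLK1 and CLK4 for those with the largest mean differences after 10 Gy in both polysome pools, which did not pass. They lie at chr6:36594112-36594361 on the plus strand (SRSF3), chr3:185938015-185938264 on the minus strand (TRA2B), chr2:200864659-200864908 on the minus strand (CLK1) and chr5:178627051-178627300 on the minus strand (CLK4).
SRSF3: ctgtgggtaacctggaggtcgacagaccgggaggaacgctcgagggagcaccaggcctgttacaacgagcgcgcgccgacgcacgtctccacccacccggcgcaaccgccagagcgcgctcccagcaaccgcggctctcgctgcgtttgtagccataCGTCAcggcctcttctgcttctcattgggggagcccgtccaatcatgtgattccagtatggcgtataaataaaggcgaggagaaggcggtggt
TRA2B: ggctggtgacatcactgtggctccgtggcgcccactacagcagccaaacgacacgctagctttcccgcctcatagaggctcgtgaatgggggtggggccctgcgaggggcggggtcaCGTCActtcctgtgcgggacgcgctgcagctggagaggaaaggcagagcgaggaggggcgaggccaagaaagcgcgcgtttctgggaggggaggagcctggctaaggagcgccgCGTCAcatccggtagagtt
CLK1: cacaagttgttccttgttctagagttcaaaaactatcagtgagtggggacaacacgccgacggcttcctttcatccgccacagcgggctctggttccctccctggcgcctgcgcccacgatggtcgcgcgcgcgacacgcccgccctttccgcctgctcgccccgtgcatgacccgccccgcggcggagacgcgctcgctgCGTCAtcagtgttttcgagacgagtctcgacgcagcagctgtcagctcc
CLK4: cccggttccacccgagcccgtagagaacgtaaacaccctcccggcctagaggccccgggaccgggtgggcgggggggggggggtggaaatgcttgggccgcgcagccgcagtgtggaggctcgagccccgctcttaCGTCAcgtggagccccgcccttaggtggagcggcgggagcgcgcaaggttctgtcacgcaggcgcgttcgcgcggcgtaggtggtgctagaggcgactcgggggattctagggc

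Irradiation was examined in Total first, where no member passed. In limma 0 of 9 members passed, against 0.128% of all genes, which is 13 genes. SRSF7 came closest, with 10.61 after 10 Gy and 11.06 in mock 4GKD cells and 11.26 after 10 Gy and 11.77 in mock WT cells, a difference of -0.48 (SE 0.07, adjusted p = 0.052). At an unadjusted p below 0.05 there were 4 members, SRSF1, SRSF3, SRSF7 and TRA2B, all lower after 10 Gy in 2 of 2 pairs by 0.19 to 0.48. The share of all genes at that unadjusted level was not counted, and the 0.128% is no measure for these 4. CLK1 differed by 0.12 and CLK4 by 0.11 in Total.

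On polysomes both kinases were higher after 10 Gy in each single comparison of 1 array with 1 array. In HMW, CLK1 read 7.22 after 10 Gy and 5.85 in mock 4GKD cells, and 7.23 after 10 Gy and 5.67 in mock WT cells. In LMW it read 6.14 after 10 Gy and 5.75 in mock 4GKD cells, and 6.94 after 10 Gy and 5.35 in mock WT cells. Every irradiated polysome array was thus above every mock one for CLK1, and all 4 mock values lay below the filter level of 6.

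CLK4 showed the same order within each genotype. In HMW it read 8.50 after 10 Gy and 7.57 in mock 4GKD cells, and 7.70 after 10 Gy and 6.36 in mock WT cells. In LMW it read 7.83 after 10 Gy and 7.24 in mock 4GKD cells, and 7.59 after 10 Gy and 6.02 in mock WT cells. Its probe set 228751_at read 6.62 after 10 Gy and 6.40 in mock cells in HMW of the knockdown, and 6.48 after 10 Gy and 4.61 in mock cells in HMW of WT.

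Fits on the 4 arrays of a pool, added after these values had been seen, called neither kinase. In HMW CLK1 differed by 1.46 (SE 0.42, adjusted p = 0.084) and CLK4 by 1.14 (SE 0.42, adjusted p = 0.31), and 0 of 9 members passed, against 0.423% of all genes. In LMW CLK1 differed by 1.00 and CLK4 by 1.08 (adjusted p = 0.37 and 0.50), and 0 of 9 members passed, against 0.414% of all genes. At an unadjusted p below 0.05 only these kinases were left in either pool, a level at which the share of all genes was not counted. Without a trend in the variance model CLK1 passed in HMW (adjusted p = 0.042).

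The other members are given as single comparisons of 1 array with 1 array, which have no replicate check. In HMW after 10 Gy, 1 of 9 members was at least 2-fold higher in 4GKD cells, CLK1 by 1.37, against 0.335% of all genes. In HMW of WT cells there were 3 of 9, CLK1 by 1.56, CLK4 by 1.35 and SRSF11 by 1.20, against 15.8% of all genes. In LMW 0 of 9 members were at least 2-fold higher in 4GKD cells, where 0.226% of all genes were. In LMW of WT cells there were 3 of 9, CLK1 by 1.60, CLK4 by 1.57 and SRSF6 by 1.01, against 15.9% of all genes.

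The main probe sets of the SR proteins and TRA2 genes leaned opposite ways in LMW. In 4GKD cells all 7 were lower after 10 Gy, by 0.46 to 0.73, and the median of the 9 members was -0.48, with all genes at -0.02. In WT cells SRSF1, SRSF3, SRSF6, SRSF11 and TRA2B were higher by 0.32 to 1.01, SRSF7 and TRA2A were at -0.09 and -0.48, and the median of the 9 members was 0.56, with all genes at 0.01. Other kept probe sets did not all follow. In WT cells SRSF6 206108_s_at was at -0.38, TRA2B 210180_s_at at -0.0041 and 200892_s_at at 0.07, and SRSF3 202899_s_at at 0.04. SRSF3 208673_s_at (0.94), SRSF7 201129_at (0.78), SRSF11 200685_at (1.21) and SRSF1 208863_s_at (0.40) were higher there. In 4GKD cells SRSF11 200685_at was at 0.09. The difference between genotypes was not tested, since each response rests on 2 arrays and the WT arrays differ in many genes.

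**Figure D5:**
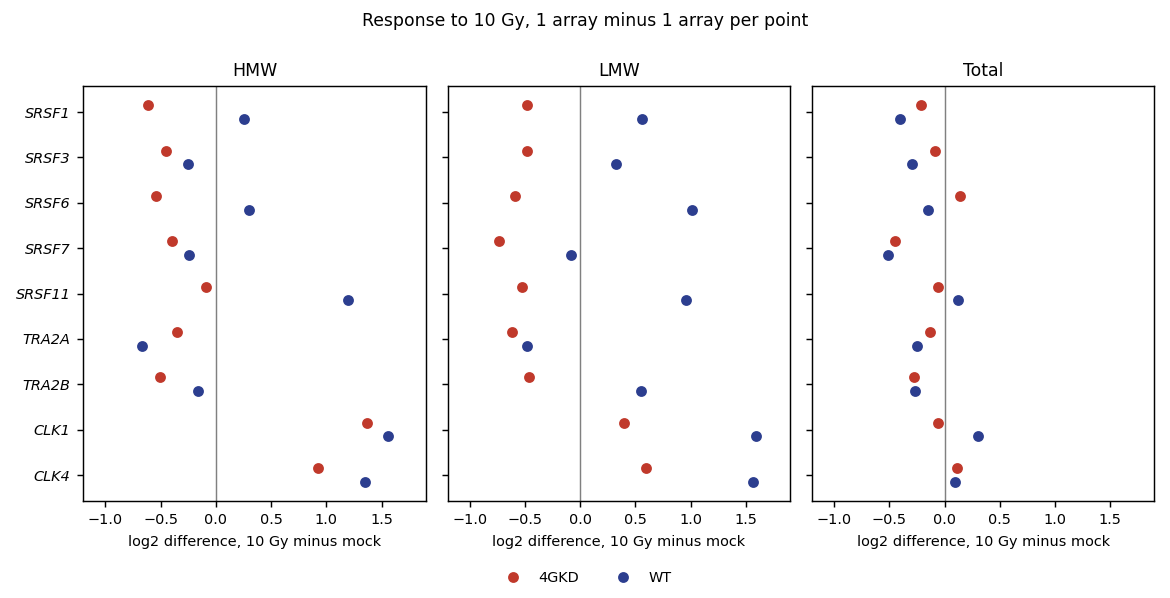
Log2 difference 10 Gy minus mock (horizontal axes) of the main probe set of 9 genes in HMW (left), LMW (middle) and Total (right); each point sets 1 array against 1 array, red for 4GKD and blue for WT. CLK1 and CLK4 are above 0 in both genotypes in HMW and LMW and near 0 in Total, and the other genes in LMW lie below 0 in 4GKD cells.

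Other splicing genes place these values. Of 19 SR-related splicing proteins, 3 were higher and 3 lower in HMW against Total, where 17.1% of all genes were higher and 18.8% lower, with SON, a speckle protein, at 1.24 and U2AF2, a subunit of the factor that binds the polypyrimidine tract, at 1.05. RSRP1 (-1.85) and PNISR (-1.62) were the lowest and passed, at the size of CLK1 or beyond. In HMW against LMW 13 of the 19 were higher and 1 lower, with BCLAF1 (1.62) and SON (1.54) the highest, where 19.7% of all genes were higher and 21% lower. Of 4 other SR proteins measured SRSF5 was lower in HMW against Total (-0.96, adjusted p = 0.0052) and the other 3 did not pass.

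Of 5 other kinases of SR proteins CLK3 was higher in HMW against Total (0.82, adjusted p = 0.0091), while CLK2 was at -0.10 (adjusted p = 0.68). In Total 0 of these 5 passed between genotypes, where 40.3% of all genes did, with CLK2 and CLK3 at 0.21 and 0.18. Of the other SR proteins SRSF10 (-0.90, adjusted p = 0.00011) and SRSF4 (-0.43, adjusted p = 0.0077) were lower in 4GKD cells and the other 2 did not pass. Of all genes 19.7% were lower there.

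Of 18 hnRNPs, a second class of splicing regulators, 10 were lower and 1 higher in Total of 4GKD cells, where 19.7% of all genes were lower and 20.6% higher, with HNRNPAB (-0.71) and HNRNPA2B1 (-0.65) the lowest and HNRNPA1 (0.29) the highest. Of 19 SR-related proteins 4 were lower and 1 higher there, and of 12 factors of nonsense-mediated decay, the pathway that removes transcripts with premature stop codons, 0 passed. In HMW against Total 7 of these 12 decay factors were higher and 0 lower, against the 17.1% of all genes higher there, led by UPF1, the central helicase of the pathway, at 1.75.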

How the data were processed

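RNA from 12 MCF10A samples was hybridised to 12 arrays, 1 per genotype, treatment and RNA preparation. The authors deposited linear RMA intensities, 1 per probe set and array, per the submitters' processing notes. The RMA version and the set of arrays it was run on are not stated. Array medians lay between 22.6 and 24.4. Intensities were turned to log2 without a pseudocount. Of 54675 probe sets, 41097 had 1 gene symbol, 1801 several and 11777 were unlisted; only the first were used, and 0 symbols needed updating. A gene was its probe set with the highest mean, and 10157 of 19775 genes were at log2 6 or more in at least 4 arrays.

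Fits used limma 3.58.1 in R 4.3.3 on all kept genes, and again on all 16824 kept probe sets, with eBayes following mean intensity and Benjamini-Hochberg adjustment at 0.05. Preparations were compared over 8 arrays with the condition as a block (3 residual degrees of freedom). Genotype and treatment were fitted together on 4 arrays, or on 4 differences between preparations (1 residual degree of freedom). The fits were run on data simulated from the same models with independent normal noise. Such data cannot show how the fits fare on arrays without replicates. The members, lists, markers and rules for naming genes were chosen with earlier results of these data known. Named were all members, EIF4G1, up to the 2 highest and 2 lowest genes of a list, and up to 3 genes most correlated with a member; from these rules the text takes a selection. Protein lengths were not analysed here. The number of arrays limits the precision.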

Additional observations from a re-analysis of the deposited data

Results flagged for a closer look

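Over the 4 pairs of each preparation comparison, SRSF11 in HMW against Total had its WT mock pair at -1.80, with the other 3 pairs between -0.72 and -0.52. SRSF3 in HMW against LMW had its WT 10 Gy pair at -0.54, with the other 3 pairs between 0.04 and 0.14. Each gap exceeded Dixon's 95% limit for 4 values, and chance sets apart about 1 in 20 such groups. All 9 members were screened in each of the preparation comparisons, so chance can flag some of these pairs.

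The response to 10 Gy had opposite signs in the genotypes, with a gap of at least 1 on the log2 scale, for 4 members in LMW and 1 in HMW. The share of all genes that meet this rule was not counted, so whether these counts are unusual is not known. These differences were not tested. In LMW SRSF1 was at -0.48 in 4GKD and 0.56 in WT cells, and SRSF6 at -0.59 in 4GKD and 1.01 in WT cells. SRSF11 was at -0.52 in 4GKD and 0.96 in WT cells, and TRA2B at -0.46 in 4GKD and 0.55 in WT cells. These are main probe sets. The other kept probe set of SRSF6, 206108_s_at, had the same sign in both, at -0.63 in 4GKD and -0.38 in WT cells. For TRA2B, 210180_s_at was at -0.45 in 4GKD and -0.0041 in WT cells, and 200892_s_at at -0.62 in 4GKD and 0.07 in WT cells. In HMW SRSF11 was at -0.087 in 4GKD and 1.20 in WT cells. All of these rest on the WT polysome arrays, in which 1607 genes in HMW and 1620 in LMW were at least 2-fold higher after 10 Gy; the part of those arrays in the difference was not tested.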

How the results depend on the processing

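Of the differences of the members and EIF4G1 under the alternatives, 825 were counted as unchanged, 46 no longer passed and 17 newly passed. Another 36 tested ones changed direction, of which 31 passed in neither setting. Those that passed in either were, with the median of all probe sets, SRSF1 at -1.37 in HMW against Total and -1.54 in LMW against Total, SRSF7 at -0.96 in HMW against Total and SRSF11 at -1.35 for 4GKD against WT in LMW, and, without _x_at and _s_at probe sets, SRSF1 at -0.057 in HMW against Total. The medians of SRSF1 and SRSF7 draw on the low probe sets 226419_s_at and 213649_at and are no separate result. The 825 include every single-pair value. Such a value has no p-value and was counted as unchanged unless a mean that passed changed its sign. Of the single-pair values, 31 had the opposite sign of a mean that did not pass.

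The others changed as follows. With the median of all probe sets SRSF3 was at 0.15 in HMW against LMW, and in LMW against Total SRSF3 was at -0.068, SRSF6 at 0.17 and SRSF7 at -0.72. For 4GKD against WT it put SRSF3 at -0.039 and SRSF11 at -0.0081 in HMW minus Total, SRSF1 at 0.12 and TRA2B at -0.023 in HMW minus LMW, and SRSF11 at -0.77 in HMW. For 10 Gy it put SRSF11 at -0.14 in Total, SRSF3 at 0.11 and SRSF7 at 0.26 in HMW, and SRSF3 at 0.52, SRSF6 at -0.15, SRSF7 at 0.14 and TRA2B at -0.25 in LMW. Without _x_at and _s_at probe sets SRSF1 was at -0.49 in LMW against Total and 0.0031 for 4GKD in HMW minus LMW, and SRSF11 at -0.11 in HMW and -0.70 in LMW for 4GKD against WT and -0.16 for 10 Gy in Total. Over all 12 arrays in Total SRSF11 was at 0.24 and TRA2A at -0.44 for 4GKD against WT, and SRSF6 at 0.027 for 10 Gy. With loess SRSF6 was at 0.028 for 10 Gy in Total, and SRSF1 at -0.099 and TRA2B at -0.093 for 10 Gy in LMW. Leaving out 1 pair put SRSF3 at -0.13 to 0.094 in HMW against LMW (above 0 without the WT 10 Gy pair) and SRSF6 at -0.075 to 0.18 in HMW against Total (below 0 without the WT 10 Gy or the 4GKD mock pair). SRSF6 was at 0.032 in LMW against Total without the WT mock pair. The probe sets that differ are named with their values in the results; for other changes the cause was not tested.

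Leaving out 1 pair gave 0 to 7 members called in HMW against Total (1671 to 4531 genes), 0 to 3 in HMW against LMW (2285 to 4558 genes) and 3 to 4 in LMW against Total (4390 to 5500 genes). The lowest counts came without the WT 10 Gy pair for HMW against Total and without the WT mock pair for genes in HMW against LMW. Without the condition as a block HMW against LMW had 52 genes (0.512%) and 0 of 9 members called. HMW against Total had 2 of 9 members called there, against 27.1% of all genes. The labels give no replicate numbers, and the condition is already the block of the preparation fits.

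For HMW against LMW 1 of 9 members was called without a filter (19.3% of all genes) and 0 of the 7 members tested with the median of probe sets (40.4% of all genes). For HMW against Total 3 of the 6 members tested and 2329 genes (32.1%) were called without _x_at and _s_at probe sets. LMW against Total had 10541 genes called without a filter. The knockdown in Total had 2373 genes called over all 12 arrays, and with the filter at log2 7 CLK4 passed there as higher. For HMW minus Total 251 genes were called with the median and 261 without _x_at and _s_at probe sets, and for HMW minus LMW 668 and 438, and 957 without a trend.

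For 10 Gy in Total 45 genes were called without a filter, 28 with a filter at 7, 6 with the median, 6 without _x_at and _s_at probe sets, 67 with cyclic loess, 0 without a trend and 2 over all 12 arrays, and 1 member (SRSF7) passed without a filter, with the filter at 7 and with loess. Of the 13 genes 10 were higher, and of the 67 with loess 32.

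The comparisons chosen after values were seen follow, with the share of all genes called in brackets. For 4GKD against WT in HMW 1 of 9 members was called without a filter (5.19%) and 0 of 7 with the median (8.72%). With loess 1 of 9 was called (9.43%) and without a trend 0 of 9 (9.57%), and 582 genes were called without _x_at and _s_at probe sets. In LMW 3 of the 7 members tested were called with the median (14.3%) and 3 of the 6 tested without _x_at and _s_at probe sets (12.4%, 897 genes). With loess 0 of 9 were called (11.7%) and without a trend 0 of 9 (16%). For 10 Gy in HMW 106 genes were called without a filter, 16 with the filter at 7 and 8 with the median, and 1 of 9 members without a trend (0.492%). For 10 Gy in LMW 4 genes were called with the filter at 7, 13 with the median, 22 without _x_at and _s_at probe sets and 23 with loess. Values below log2 6 are close to the arrays' background, so that differences of CLK1 and of the low probe sets have no exact size.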
